A study of Homo sapiens with 4 samples.

Results

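The 632 peaks described here are places in the transcriptome of Jurkat cells where PRMT5 immunoprecipitation gave at least 6 times the scaled reads of the input. Places with few reads in the immunoprecipitation were left out, whatever their ratio. Jurkat is an established human CD4+ T cell leukemia line. All libraries came from Jurkat cells stimulated for 48 hours with PHA (phytohemagglutinin, a lectin that activates T cells) and crosslinked by UV. The study made 2 PRMT5 RIP libraries, from RNA recovered by immunoprecipitation with FLAG, and 2 input libraries, and the sources used here do not describe the tagged construct. The deposited list holds 18993 peaks, each with 1 value pooled over the RIP libraries and 1 pooled over the input libraries, in RPM (reads scaled to the size of the library). Peaks were selected on these values, with a RIP RPM of at least 1 and a ratio of (RIP RPM + 0.01) to (input RPM + 0.01) of at least 6. This took 3.33% of all peaks and 5.21% of the 12140 peaks with a RIP RPM of at least 1, and gave peaks in 603 of the 8478 genes of the list. High RIP, low input and a high ratio are therefore set by the selection and are given only as a description. The libraries of a group cannot be told apart in the list, so no value has a replicate error and no test was made. The libraries were bulk RNA, so more cells that hold a transcript and more transcript per cell cannot be told apart.

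PRMT5 is an arginine methyltransferase that works in a complex with the WD repeat protein WDR77, and it symmetrically dimethylates arginines of histones, Sm proteins and other RNA-binding proteins. Through these substrates it is known for roles in chromatin, transcription and pre-mRNA splicing. RNA immunoprecipitation (RIP) after crosslinking recovers RNA fragments that were in contact with, or close to, the precipitated protein, and input gives the abundance of the same RNA before the precipitation. No mock precipitation was analysed here, so contact with PRMT5 and contact with the antibody or beads cannot be told apart.

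The cell line was checked by its markers. Peaks with a symbol were found for 9 of 12 T cell markers (CD2, CD3D, CD3E, CD3G, CD7, CD28, CD247, LCK and ZAP70), for CD79A among 4 B cell markers and for none of the 4 myeloid, 4 erythroid or 4 epithelial markers. The T cell marker peaks summed to 1198 RPM in RIP and 998 RPM in input. Their ratios ran from 0.858 to 3.05, and none of them reached 6.

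Many of the selected peaks lay at the start of a gene, so the sequence at the start is shown for the 6 peaks of largest ratio that covered a RefSeq gene start with an input of at least 0.5 RPM. Each line gives 20 bases before the start in lower case and the first 30 bases of the transcript in capitals, from RefSeq on GRCh38.p14.
TM9SF3: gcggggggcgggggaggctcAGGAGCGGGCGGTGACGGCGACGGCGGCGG
CYB5R3: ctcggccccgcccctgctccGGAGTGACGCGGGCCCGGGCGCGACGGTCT
DRAP1: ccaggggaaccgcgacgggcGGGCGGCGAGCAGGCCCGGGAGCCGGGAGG
CHASERR: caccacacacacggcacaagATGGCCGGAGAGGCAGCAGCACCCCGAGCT
PPP4C: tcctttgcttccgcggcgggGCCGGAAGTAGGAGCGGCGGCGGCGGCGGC
TMEM238: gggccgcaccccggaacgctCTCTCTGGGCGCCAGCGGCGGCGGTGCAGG

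TM9SF3, a transmembrane protein of the endomembrane system, was read on the minus strand at chr10:96586983-96587032. CYB5R3, the NADH-cytochrome b5 reductase, was read on the minus strand at chr22:42649363-42649412. DRAP1, a corepressor of RNA polymerase II transcription, was read on the plus strand at chr11:65919406-65919455. CHASERR, a long noncoding RNA next to the chromatin remodeler gene CHD2, was read on the plus strand at chr15:92882823-92882872. PPP4C, the catalytic subunit of protein phosphatase 4, was read on the plus strand at chr16:30075974-30076023. TMEM238, a transmembrane protein, was read on the minus strand at chr19:55384263-55384312. The GC content of transcript bases 1 to 50 ran from 74% in CHASERR to 88% in CYB5R3.

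Over the 84 selected peaks that covered bases 1 to 50 of a gene with a start sequence, the median GC content of these bases was 72%, against 68% for 1032 other peaks with a RIP RPM of at least 1 and 60% for all 35116 RefSeq start windows. The letters CGGCGG stood in 22.6% of the 84 windows, in 13.1% of the 1032 and in 6.71% of all windows. They also stand in the lines of TM9SF3, PPP4C and TMEM238 above, whose windows are among the 84, so the 22.6% is no independent evidence. The part of the difference in GC content in these shares was not tested. The reverse complement CCGCCG stood in 10.7%, 9.30% and 4.20%. Both were searched on the transcript's strand, and a window may hold both. The pentamer ATTTA, the core of AU-rich elements, stood in 1 of the 84 windows (1.19%), in 0.388% of the 1032 and in 2.28% of all windows. Its reverse complement TAAAT stood in none of the 84, in 0.194% of the 1032 and in 2.09% of all windows. These matches describe the letters of the windows and are no sites of binding.

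Among these 6 peaks, TM9SF3 had the highest ratio, with 25.1 RPM in RIP and 0.74 RPM in input, over 10254 nt that reached into the gene. It was the only peak of its gene. CYB5R3 had 10.29 RPM in RIP and 0.57 RPM in input at its 5′-most peak, which gave a ratio of 17.8. That peak began far upstream of the 1 RefSeq start used for the gene and was 15632 nt wide, so it covered much more than the sequence shown. The next peaks of CYB5R3 toward the 3′ end had ratios of 5.34, 4.29 and 2.70. DRAP1 had 26.27 RPM in RIP and 1.76 RPM in input at its 5′-most peak of 355 nt, a ratio of 14.8. Its other peak, just downstream, had 267.62 RPM in RIP and 52.53 RPM in input, which gave a ratio of 5.09. CHASERR had 13.01 against 0.89 RPM, PPP4C 8.73 against 0.60 RPM and TMEM238 19.67 against 1.38 RPM, each at the 5′-most of 2 peaks.

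The selected peaks mostly had low RPM values, which are not scaled to the width of the peak. Their median RIP value was 3.40 RPM, below the 4.79 RPM of all peaks with a RIP RPM of at least 1. Their median input was 0.405 RPM against 2.26 RPM. Per 100 nt of peak, the median RIP was 0.992 RPM against 0.944 RPM and the median input 0.112 RPM against 0.356 RPM. The ratio was under 7 in 215 peaks, from 7 to under 8 in 114, from 8 to under 10 in 141, from 10 to under 15 in 121, from 15 to under 20 in 22 and at least 20 in 19. Input was at least 0.5 RPM in 268 peaks (42.4%) and under 0.1 RPM in 27, where the step of 0.01 RPM in the deposited values moves the ratio most. All 27 peaks with a RIP RPM of at least 1 and an input under 0.1 RPM were selected, since the rule leaves no other outcome there, against 23 of the 2586 peaks with an input of at least 10 RPM (0.889%). The selected peaks held 4.55% of the summed RIP RPM and 0.962% of the summed input RPM of the list, and the 6 highest of them held 70.2% of that RIP sum.

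**Figure D1:**
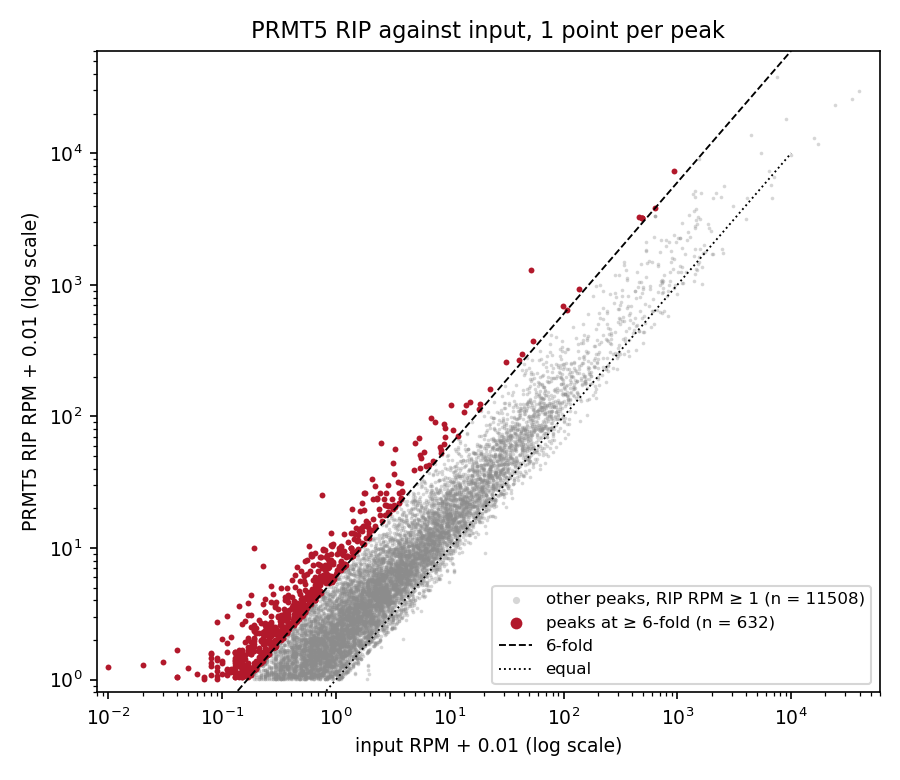
PRMT5 RIP RPM against input RPM, both with 0.01 added and on log scales, 1 point per peak with a RIP RPM of at least 1. The 632 selected peaks (red) lie on or above the dashed 6-fold line by selection, most of them at an input under 1 RPM, and 11508 other peaks (gray) lie below it; the dotted line marks equal values.

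STRN3, a striatin scaffold protein, had 1.19 RPM in RIP and 0.19 RPM in input, which gave a ratio of 6 that just qualified, and GADD45GIP1 (638.39 and 106.23 RPM) and TMEM165 (7.38 and 1.22 RPM) both had 6.01. Just below it, EPOP (5.08 and 0.84 RPM), DNAJC17 (4.78 and 0.79 RPM) and MRPL49 (4.24 and 0.70 RPM) had 5.99. The RIP values of these 6 peaks ran from 1.19 to 638.39 RPM.

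The 5 highest inputs among the selected peaks belonged to histone and ribosomal RNA regions. H1-4, a linker histone gene, had 7368.73 RPM in RIP and 935.08 RPM in input at chr6:26156329-26157103, a ratio of 7.88. An identifier without a symbol at chr6:26158122-26170988, a region that overlaps the histone gene H2BC5, had 3857.46 and 630.46 RPM. The other 3, without a symbol, lay on chromosome 21 in or just before the 45S ribosomal RNA gene RNA45SN2. Their RIP values were 3198.22, 3223.90 and 3204.93 RPM, and their input values 487.52, 492.62 and 491.21 RPM. The 3 peaks thus had nearly the same value in RIP and in input, and ribosomal DNA is repeated in the genome, so they may share reads. A further 2 selected peaks lay in chromosome Y copies of genes shared with chromosome X.

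Replication-dependent histone genes, whose short mRNAs lack introns and end in a stem loop in place of a poly(A) tail, had 8 selected peaks of 65 with a RIP RPM of at least 1 (12.3%, against 5.21% over all such peaks). The median ratio of the 65 was 2.70, against 2.04 over all. This and the other gene lists were not matched for input. Over all peaks with a RIP RPM of at least 1, the selected share depended strongly on input. It was 67.4% at an input of 0.1 to under 0.25 RPM and 0.889% at 10 RPM or more. How far a list's share follows the input of its genes was not tested. H2AC17 had 3261.65 RPM in RIP and 464.82 RPM in input. H4C5 had 932.04 and 136.01 RPM, H2AC16 690.68 and 99.80 RPM, and H4C16 79.41 and 10.68 RPM. These and H1-4 had ratios between 6.85 and 7.88. H2BC6 stood higher, with 56.20 and 3.30 RPM and a ratio of 17. The pseudogenes H2BC16P (1.23 and 0 RPM) and H1-12P (1.68 and 0.03 RPM) had the ratios 124 and 42.2, each in a peak of 25 nt with next to no input, so their size rests on the added 0.01 RPM. All 8 were the only peak of their gene. Reads of histone genes can match near-identical copies, so the value of a single copy is uncertain. At a ratio of at least 8, 3 of the 8 remained.

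Cytosolic ribosomal protein genes had 5 selected peaks of 161 (3.11%), below the share over all peaks, and the median ratio of the 161 was 1.49. The peak of RPS29, a protein of the small subunit, was the strongest: 1293.51 RPM in RIP and 51.72 RPM in input, which gave a ratio of 25, at chr14:49583582-49585303. The 5′-most peak of RPS29, next to it, had 257.14 and 195.63 RPM, a ratio of 1.31. RPS6 had 9.99 and 0.18 RPM, a ratio of 52.6, in a peak of 125 nt. The 5′-most peak of RPS6 had 187.24 and 51.47 RPM, a ratio of 3.64, and the 3′-most 5647.20 and 2563.03 RPM, a ratio of 2.20. RPL28 had 90.26 and 7.37 RPM at its 5′-most peak, a ratio of 12.2, and ratios from 0.989 to 5.70 at its 7 other peaks. RPL15 (42.75 and 6.51 RPM) and RPS9 (19.06 and 1.61 RPM) also qualified at the 5′-most peak. In RPS6, RPL28, RPL15 and RPS9 the selected peak was weaker in RIP than the strongest peak of the gene, and in RPS29 it was the strongest itself.

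Mitochondrial ribosomal protein genes had 2 selected peaks of 124 (1.61%, MRPL4 and MRPL38), nuclear-encoded respiratory chain genes 2 of 132 (1.52%, NDUFA2 and NDUFC1) and snoRNA host genes 1 of 51 (1.96%, SNHG10), all below the 5.21% over all peaks with a RIP RPM of at least 1. These shares, too, were not matched for input. SR and hnRNP genes, which code for splicing and RNA-binding factors, had 3 of 86 (3.49%). HNRNPU was the strongest of them, with 62.01 RPM in RIP and 8.86 RPM in input. The Sm and LSm genes, whose proteins include substrates of PRMT5, had 2 of 31 (6.45%, near the 5.21% over all), LSM14A (4.54 and 0.65 RPM) and LSM6 (1.48 and 0.21 RPM).

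Genes of arginine methyltransferases and PRMT5 cofactors had 1 selected peak of 24 (4.17%, near the 5.21% over all). It belonged to COPRS, which couples PRMT5 to histone substrates, with 6.68 RPM in RIP and 1.03 RPM in input at the 5′-most peak. The ratio there was 6.43, and the peak lay wholly upstream of the RefSeq start used for COPRS. The other peak of COPRS had 17.44 and 12.64 RPM, a ratio of 1.38. PRMT5 itself had 4 peaks, none selected, from 3.61 RPM in RIP and 1.89 RPM in input at the 3′-most to 38.70 and 37.64 RPM at the strongest. WDR77 had 4 peaks of 0.27 to 4.89 RPM in RIP, none selected. PDCD1, the gene of the receptor PD-1, had 4 peaks of 0.16 to 0.23 RPM in RIP and 0.04 to 0.11 RPM in input. Their ratios ran from 2 to 3.4, beside a median of 2.14 over all peaks, at inputs where the rounding weighs on the ratio. All 4 were below the RIP RPM of 1 that the selection required. GAPDH, an abundant mRNA, had 1726.49 RPM in RIP and 2060.31 RPM in input at its strongest peak.

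RAS and MAP kinase genes, which carry growth factor and antigen receptor signals, had 7 selected peaks of 41 (17.1%, against 5.21% over all), and the median ratio of the 41 was 3. HRAS, a RAS GTPase, had 13.03 RPM in RIP and 1.36 RPM in input at its 5′-most peak, which gave a ratio of 9.52, and ratios of 3.22 and 3.36 at its other 2 peaks. MAP3K7, the kinase TAK1, had 2.79 and 0.15 RPM, a ratio of 17.5. MAPKAPK2, a kinase downstream of p38, had 8.11 and 0.89 RPM. DUSP1, a phosphatase of MAP kinases, had 3.02 and 0.42 RPM. MAP4K4 and RASGRP2 were also among the 7. Of these 7 peaks, 5 were the 5′-most of their gene and the other 2 the only one.

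Chromatin regulator genes had 18 selected peaks of 113 (15.9%, against 5.21% over all) in 16 genes. The median ratio of the 113 was 2.50, against 2.04 over all peaks with a RIP RPM of at least 1. The genes were not matched for input. This list was written after some of its members had been seen among the selected peaks, so its count is no independent evidence. ARID1A, a subunit of the SWI/SNF remodeler, had 5.89 RPM in RIP and 0.84 RPM in input at the 5′-most and 14.64 and 2.20 RPM at the next of its 4 peaks. The other 2 peaks of ARID1A had ratios of 1.55 and 1.04. SMARCD2, a further SWI/SNF subunit, had 6.02 and 0.93 RPM, BRPF1, a subunit of a histone acetyltransferase, 3.61 and 0.48 RPM, and KDM3B, a histone demethylase, 2.93 and 0.35 RPM. SPEN, a corepressor, had the highest ratio among the peaks of the list with a RIP RPM of at least 1 (1.57 and 0.07 RPM, 19.8) and was singled out after the values were seen. The others were ARID1B, ATXN7L3, BPTF, CHD3, MNT, NSD1, RCOR1, SIRT1, SIRT2, SIRT6 and SMARCE1.

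T cell receptor signaling genes had 4 selected peaks of 70 (5.71%), a share near that over all peaks. FYN, a SRC-family kinase of the receptor, had 5.10 RPM in RIP and 0.26 RPM in input at its 5′-most peak, which gave a ratio of 18.9. The peak next to it had 0.51 and 0.02 RPM, a similar ratio of 17.3 at a RIP value too low for selection, and the 2 peaks toward the 3′ end had ratios of 1.92 and 1.88. GRB2, the adaptor that links receptors to RAS, had 6.20 and 0.43 RPM at its 5′-most peak, a ratio of 14.1, and 18.43 and 7.16 RPM at its other peak, a ratio of 2.57. GSK3B (10.65 and 1.76 RPM) and VAV3 (4.94 and 0.68 RPM) completed the 4. In FYN and GRB2 the 5′-most peak thus had a higher ratio and a lower input RPM than the 3′-most peak, as the selection favored. The 3′-most peaks were much wider, at 6501 nt in FYN and 67832 nt in GRB2. Per 100 nt, input was higher at the 5′-most peak, with 0.0743 against 0.0178 RPM in FYN and 0.283 against 0.0106 RPM in GRB2. These values divide by the full span of the peak, which includes any intron inside. How far this lowered them at the wide 3′-most peaks was not tested. The FYN peaks in between had 0.04 and 0.613 RPM per 100 nt in input.

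NF-kB and NFAT genes had 5 selected peaks of 47 (10.6%, against 5.21% over all). NFATC2IP, which binds NFAT, had 4.06 RPM in RIP and 0.23 RPM in input at its 5′-most peak, which gave a ratio of 17, and ratios from 1.58 to 2.97 at its 6 other peaks. TRAF3 (1.67 and 0.23 RPM), DYRK1A (1.45 and 0.21 RPM), IKBKG (1.27 and 0.16 RPM) and ORAI2 (1.00 and 0.06 RPM) were close to the lower RIP limit. MicroRNA processing and silencing genes had 2 of 13 (15.4%, against the same 5.21%). They were TNRC6C, a partner of Argonaute (5.64 and 0.47 RPM), and CNOT11, a subunit of the CCR4-NOT deadenylase (3.63 and 0.47 RPM). These lists, too, were not matched for input. Ubiquitin ligase and deubiquitinase genes had 11 of 181 (6.08%, near the 5.21% over all), led by CUL3 (5.63 and 0.51 RPM), UBE2H (4.56 and 0.58 RPM) and UBE2E3 (4.17 and 0.50 RPM). UBE2H and UBE2E3 code for ubiquitin-conjugating enzymes, which this list also holds. ZNF-named zinc finger genes had 6 of 97 (6.19%, also near it), with ZNF48 at ratios of 20.5 and 12.3 in 2 neighboring peaks. The ubiquitin list, too, was written with some of the selected peaks known.

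By gene class, 473 of the 525 selected peaks with a symbol lay in protein-coding genes (90.1%), 34 in long noncoding RNA genes (6.48%), 17 in pseudogenes (3.24%) and 1 in a small noncoding RNA. Another 107 had no symbol. Of the peaks with a RIP RPM of at least 1, 9.26% of those in long noncoding RNA genes and 9.14% of those in pseudogenes were selected, against 5% in protein-coding genes and 5.15% of those without a symbol. The classes were not matched for input. An identifier matched by position to the readthrough locus SERF2-C15ORF63, whose class as noncoding is therefore uncertain, had 63.26 RPM in RIP and 2.46 RPM in input, which gave a ratio of 25.6. The other long noncoding RNA genes of highest RIP value were PPP1R35-AS1 (46.02 and 7.17 RPM), MADCAM1-AS1 (27.17 and 3.82 RPM), CHASERR and LOC124903672 (9.32 and 1.37 RPM). The peaks of PPP1R35-AS1, MADCAM1-AS1 and LOC124903672 overlapped a peak on the other strand. There the RNA of one strand cannot be told apart from that of the other. Without peaks that overlap the opposite strand, the protein-coding share of named genes was 92.9% in place of 89.9%. Among pseudogenes, RPS8P8 (53.08 and 8.45 RPM), LOC100130394 (21.10 and 3.23 RPM), HMGB1P5 (16.17 and 2.51 RPM) and LOC729973 (15.51 and 1.90 RPM) had the highest RIP values besides LOC102724984, whose locus overlaps the protein-coding gene STUB1. The small RNA was a mitochondrial tRNA of 69 nt on the minus strand, with 123.13 RPM in RIP and 10.21 RPM in input, which gave a ratio of 12. Reads of pseudogenes may come from their parent genes.

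The selected peaks were short. Their median width was 300 nt, against 628 nt for all peaks with a RIP RPM of at least 1, and 393 of them (62.2%) were 100 to 500 nt wide, against 38.8%. The share of selected peaks was 1.96% at 25 nt, 4.34% above that up to 100 nt, 8.64% up to 250 nt, 8.95% up to 500 nt, 5.86% up to 1000 nt, 2.72% up to 5000 nt and 2.09% above 5000 nt. It was thus highest in the middle classes and lower on both sides. The median width of the selected peaks was 450 nt at an input of at least 0.5 RPM, and also at a RIP RPM of at least 5. RPM values are not scaled to width, so a selection that favors low input can favor short peaks. Its part in the widths was not tested. The 50 peaks wider than 5000 nt included TXNL4A, a component of the spliceosome, with 161.53 RPM in RIP and 22.58 RPM in input over 52629 nt. SLC71A3P spread 3.32 RPM over 40660 nt, and an identifier without a symbol on chromosome 6 spread 19.85 RPM over 50791 nt. Every selected peak was given as 1 block, so these widths include any intron inside. A total of 19 selected peaks overlapped another peak of their own strand.

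Peaks of a gene were ordered along its strand and called 5′-most, 3′-most, between, or only. Of the selected peaks, 312 were 5′-most (49.4%), 183 only (29%), 82 between (13.0%) and 55 3′-most (8.70%). In genes with at least 2 peaks, 69.5% of the selected peaks were 5′-most, 18.3% between and 12.2% 3′-most. Over the peaks with a RIP RPM of at least 1 these shares were 34.5%, 36.1% and 29.4%. Put the other way, 9.48% of 5′-most, 7.04% of only, 2.38% of between and 1.96% of 3′-most peaks were selected.

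Within classes of input and width, the share was again highest for 5′-most peaks, while the order of the other positions was not always the same. At an input of 0.5 to under 2 RPM, 8.61% of 5′-most, 6.06% of only, 1.19% of between and 1.61% of 3′-most peaks were selected. At an input of at least 2 RPM the shares were 2.43%, 1.65%, 0.806% and 0.186%. At a width of 100 to 500 nt, the shares were 14.6% of 5′-most, 11.8% of only, 3.84% of between and 3.24% of 3′-most peaks. Without peaks that overlap one on the other strand, they were 9.72%, 7.30%, 2.34% and 1.45%. In genes with at least 4 peaks, 60.8% of the selected peaks were 5′-most, against 23.3% of those with a RIP RPM of at least 1.

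Distances were taken from 1 RefSeq start per gene, so a peak at any other start of its gene counts by its distance from that 1. The VAV3 peak, for example, had an offset of -276649 nt, far upstream. A total of 434 selected peaks lay in a gene with a RefSeq start on the same strand. Of these, 277 (63.8%) began within 250 nt of that start and 91 (21%) covered it, against 37.0% and 13.7% of the 8543 such peaks with a RIP RPM of at least 1. The median offset of the peak's 5′ end was 57.5 nt downstream of the start, against 1135 nt. Among 5′-most peaks the gap was small, with 78.6% of the selected and 75.4% of all 5′-most peaks with a RIP RPM of at least 1 within 250 nt. Among peaks between others the shares were 16.4% against 5.71%, although the 16.4% stands for only 10 of 61 peaks. Among peaks farther than 250 nt from the start, 8.31% of 5′-most and 1.49% of 3′-most peaks were selected.

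**Figure D2:**
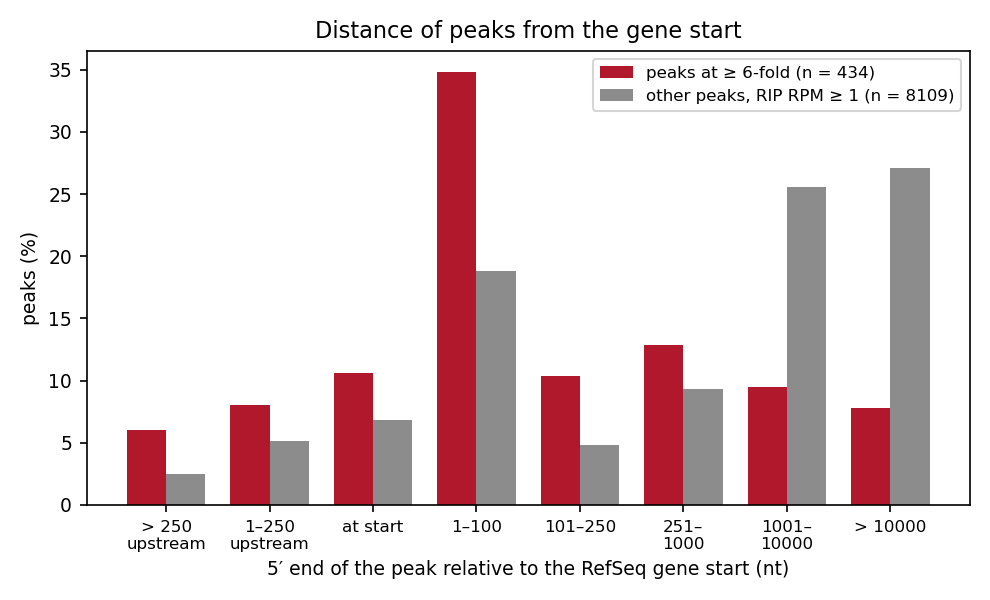
Distance of the 5′ end of a peak from the 1 RefSeq start used per gene in nt (upstream, at the start, or downstream in classes of growing size), as percent of 434 selected peaks (red) and of 8109 other peaks with a RIP RPM of at least 1 (gray). From 1 to 100 nt downstream lie 34.8% of the selected and 18.8% of the other peaks, and in the farthest class 7.83% and 27.1%.

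The ends of a gene were set side by side as a description, since the selection used both the RIP and the input values. In the 312 genes whose 5′-most peak was selected, that peak had a median of 1.11 RPM per 100 nt of peak in RIP and 0.116 in input, and the 3′-most peak 0.797 in RIP and 0.303 in input. Input per 100 nt was lower at the 5′-most peak in 229 of the 312 genes (73.4%), and RIP per 100 nt was higher there in 184 (59.0%). In the 193 of these genes whose 3′-most peak also had a RIP RPM of at least 1, RIP per 100 nt was higher at the 5′ end in 96 (49.7%) and input lower in 154 (79.8%). In the 2980 genes whose 5′-most peak had a RIP RPM of at least 1 but was not selected, RIP was higher in 42.3% and input lower in 63.7%. In the 55 genes whose 3′-most peak was selected, the medians at the 5′-most and 3′-most peak were 0.584 and 0.790 RPM per 100 nt in RIP and 0.126 and 0.102 in input. There RIP was higher at the 5′ end in 32.7% of the genes and input lower in 49.1%. A low input is what the selection favored, and its part in the difference between the ends was not tested. Median widths at the 5′-most and 3′-most peak were 300 and 275 nt in the 312 genes. In the 193 they were 275 and 706 nt, in the 2980 they were 976 and 225 nt, and in the 55 they were 339 and 225 nt. Peak lengths include any intron inside, so a wide peak can have a low value per 100 nt. The part of width in the differences between the ends was not tested. Only 5 genes had both end peaks selected.

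**Figure D3:**
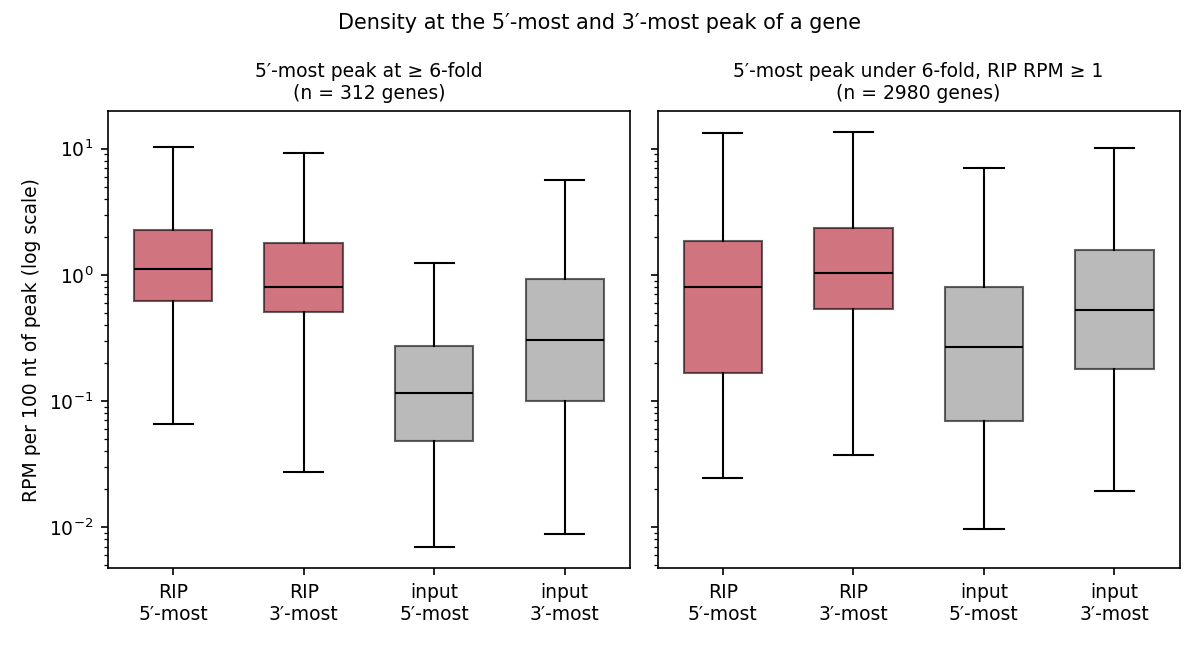
RPM per 100 nt of peak (log scale) at the 5′-most and 3′-most peak of genes, for PRMT5 RIP (red) and input (gray), in 312 genes whose 5′-most peak was selected (left) and 2980 whose 5′-most peak had a RIP RPM of at least 1 but was not (right). Boxes span the quartiles with the median and whiskers the 5th to 95th percentile. On the left, the median input is 0.116 at the 5′-most and 0.303 at the 3′-most peak, while the RIP medians are 1.11 and 0.797. Peak lengths include any intron inside.

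The selection took 1 peak in 577 identifiers, of which 183 had no other peak, 2 in 26 and 3 in 1. The 1010 other peaks of these genes had a median ratio of 2.45, near the 2.14 of all peaks. By the first identifier of each peak, ETFB, the beta subunit of the electron transfer flavoprotein, was the gene with 3. Its selected peaks had 26.48 RPM in RIP and 3.77 RPM in input, 13.73 and 1.60 RPM, and 81.63 and 9.09 RPM, and its 3′-most peak 61.48 and 17.37 RPM, a ratio of 3.54. The peak with 13.73 RPM lay inside the span of the one with 26.48 RPM, so those 2 may share reads. Both lay wholly upstream of the RefSeq start used for ETFB. The peak with 26.48 RPM carried 4 identifiers and that with 81.63 RPM carried 2, so their assignment to ETFB is uncertain. CTCF, the insulator protein, had 2 selected peaks, with 2.57 and 0.18 RPM at the 5′-most and 1.36 and 0.02 RPM at the next, ratios of 13.6 and 45.7. A further peak of CTCF had 0.36 and 0.04 RPM, and the 3′-most 4.97 and 2.20 RPM, a ratio of 2.25. BTD, biotinidase, had the ratio of 65 at a 3′-most peak of 25 nt with 1.29 and 0.01 RPM, where the input is a single step of the rounding. ZCCHC3, a zinc finger protein that binds RNA and DNA, had 8.97 and 0.60 RPM at its 5′-most peak, a ratio of 14.7.

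On the other strand, 143 of the selected peaks (22.6%) had an overlapping peak, against 20.4% of peaks with a RIP RPM of at least 1. In 62 of them the opposite peak was selected too, which gave 31 pairs. In 12 pairs the overlap made up at least 90% of the wider peak, and the median log2 difference between the 2 RIP values was then 0.03. ST20-AS1 and ST20 had 7.91 and 8.05 RPM in RIP and 0.53 and 0.55 RPM in input. EID2B and its unnamed partner had the same 2.40 and 0.34 RPM on both strands. HNRNPU, TPM4 and HOXA7 also had a selected peak opposite. How reads were assigned to strands is not stated. For all 143 peaks, the RNA of one strand therefore cannot be told apart from that of the other.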

How the data were processed

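PRMT5 RIP and input libraries of PHA-stimulated Jurkat cells, 2 of each, were analysed. The authors deposited 1 list of peaks, with 1 value in RPM (reads scaled to the library total) for RIP and 1 for input per peak, each pooled over its libraries and rounded to 0.01 RPM, so the depth is unknown and no value has an error. The submitters' processing notes name fastp, HISAT2 and hg38. The peak caller, the gene annotation and the use of strand in counting are not given in the sources used here. The list also holds the authors' comparison of RIP with input (log2 fold change, p-value, adjusted p-value and score), which was not used.

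Peaks were read with Python 3.11.15, pandas 2.3.3 and numpy 2.4.6 and drawn with matplotlib 3.10.9, with starts raised by 1. Each peak was assigned to its first identifier. A symbol came from the study's supplementary gene names or from the RefSeq gene (GRCh38.p14) that all peaks of the identifier touched on the same strand, and a RefSeq gene without a strand in the tables was used only where no peak of the opposite strand overlapped it. Of 8490 identifiers, 6827 received a symbol. Some of these matches by position may be wrong. The selection and the order of peaks were tested on simulated data.

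The peaks, gene lists and comparisons were chosen with earlier results of these data known, and the chromatin and ubiquitin lists after part of the selected peaks had been seen. Named genes were the 10 peaks of largest ratio at an input of at least 0.5 RPM, the 5 of largest input, the 5 of largest ratio, the 3 on either side of the limit, up to 5 per gene class and list by RIP RPM, the 3 widest, genes with at least 3 selected peaks, and PDCD1, PRMT5, WDR77 and GAPDH for comparison. Other genes with values were named after these were seen. Alternatives varied the ratio, the RIP minimum, the added RPM, the input minimum, the rounding, overlapping strands, shared identifiers, width, and the definition of position.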

Additional observations from a re-analysis of the deposited data

How the results depend on the processing

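The number of selected peaks moved from 632 to 1688 at a ratio of at least 4, 303 at a ratio of at least 8, 232 at a RIP RPM of at least 5, 77 with 1 RPM added in place of 0.01, and 268 at an input of at least 0.5 RPM, and the number of genes from 603 to 1518, 295, 225, 75 and 261. The share of 5′-most peaks in genes with at least 2 peaks (69.5%) was 64.9% at a ratio of at least 4, 75.4% at a RIP RPM of at least 5, 74.0% at an input of at least 0.5 RPM, 60.8% in genes with at least 4 peaks and 75.7% where both end peaks had a RIP RPM of at least 1, and stayed above the share over all peaks with a RIP RPM of at least 1 in each of these (23.3% to 35.1%). The median width (300 nt) was 625 nt with 1 RPM added, near the 628 nt of all peaks with a RIP RPM of at least 1. The median input (0.405 RPM) was 1.35 RPM at a RIP RPM of at least 5, 3.48 RPM with 1 RPM added and 1.10 RPM at an input of at least 0.5 RPM. The protein-coding share of named genes (89.9%) was 93.0% with 1 RPM added and 92.9% without peaks that overlap the opposite strand. Histone peaks fell from 8 to 3 at a ratio of at least 8. These shifts follow from the changed selection itself. No value reversed, but the shorter width of the selected peaks was nearly gone with 1 RPM added. Leaving out the Y copies and all but 1 ribosomal DNA peak, and ordering only peaks with a RIP RPM of at least 1, were chosen after seeing the data. No paired analysis was possible because the list gives 1 pooled value per group, and for the same reason no replicate could be left out. Ratios at an input under 0.1 RPM depend on the rounding and the added RPM, and depth is unknown.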
